A study of Rattus norvegicus with 6 samples.

Results

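The insulin-like growth factor (IGF) genes of this study are 9 genes: the ligands Igf1 and Igf2, the receptor gene Igf1r, and the genes of 6 IGF-binding proteins, Igfbp2 to Igfbp7. They were chosen by their symbols in the platform annotation, which gives each of them 1 probe set, among 18166 named genes in all. On this platform many short probes along one transcript are summarised into a single intensity, the probe set's value. Expression was measured on Affymetrix Rat Gene 2.0 ST arrays in stem cells cultured from the skeletal muscle of male rats. There were 6 arrays, and each was a group of its own. The cholesterol cells received 100 mg/dl cholesterol carried by cyclodextrin, and the fatty acid cells received sodium palmitate at a dose the labels do not give. The other arrays are titled OZ serum, LZ serum, high glucose control and low glucose control, and these titles are used as given. The labels give no age, exposure time or glucose concentration. They also do not state the control each treatment should be set against, or whether the controls contained cyclodextrin. Each treated array was therefore read against both controls. With no second array in any group there is no replicate error and no test, so every difference below describes these libraries. The number of arrays limits the precision.

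IGF1 and IGF2 are secreted growth factors that act through the IGF1 receptor, a tyrosine kinase that signals through adaptor proteins to the PI3K-AKT and MAP kinase pathways. In skeletal muscle this pathway is known for driving both the proliferation and the differentiation of myoblasts. Binding proteins hold the ligands outside the cell, where they lengthen their life, keep them from the receptor or, when cleaved by proteases, release them.

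Median intensity over all probe sets ran from 104.6 to 109.2 between arrays, so no further scaling between arrays was applied. In bulk RNA of this kind, fewer cells of a type and less RNA per cell cannot be told apart. For scale, the difference between the high and the low glucose control had a median size of 0.14 and a 95th percentile of 0.48 on the log2 scale over the 11540 genes that passed a filter on mean signal. The filter asked for a mean log2 signal no lower than 6.74, the median over every probe set and array. Of the 9 IGF genes, 8 passed it and Igf2 did not. Olfactory receptor genes, taken here as mostly silent without a test of that, gave a second yardstick for low signal: their 69 probe sets had a 95th percentile from 181 to 222, depending on the array. Their median was 24.1 to 33.2 and their 90th percentile 115 to 132. A value under the 95th percentile can therefore still exceed most of these probe sets. The labelled cell type was compared with its markers. All 13 annotated markers of mesenchymal progenitors and fibroblasts passed the filter, among them Vim, Thy1 and Col1a1, and 11 exceeded the olfactory receptor 95th percentile on every array. The myogenic regulators Pax7, Myf5, Myod1 and Myog and the muscle filament gene Des lay below the olfactory receptor 95th percentile on all 6 arrays. On the same list of 14 muscle markers, the adhesion gene Ncam1 and the skeletal actin gene Acta1 exceeded it on all 6 arrays, Pax3 on 5 and Itga7 on 4, so the muscle markers were mixed.

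Among the ligands, Igf1, probe set 17827365, was lowest in the fatty acid array. Its intensity was 351 with cholesterol, 195 with fatty acid, 468 with OZ serum, 557 with LZ serum, 419.7 in the high glucose control and 402 in the low glucose control. Fatty acid gave the lowest value and the serum arrays the highest ones, with cholesterol and the controls in between. The log2 differences of the fatty acid array were -1.10 from the high glucose and -1.04 from the low glucose control, the smaller of them 2.06-fold. With cholesterol the differences were -0.26 and -0.20. The 195 in the fatty acid array is under the olfactory receptor 95th percentile of that array, 210.3. The controls differed by 0.06 in Igf1.

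Igf2, the growth factor of fetal tissues that myoblasts also make during differentiation, had a signal from 90.6 to 112 over the 6 arrays. That is under the olfactory receptor 95th percentile on every array, and the order of such values carries little information. Igf2 was not counted in any comparison.

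Igf1r, the receptor gene, had the smallest range of the 9, in probe set 17617445. Its intensity was 3174 with cholesterol, 3333 with fatty acid, 3150.2 with OZ serum, 3465 with LZ serum, 3312 in the high glucose control and 3404 in the low glucose control. The range was 0.14 on the log2 scale, or 1.10-fold between the highest and the lowest array. Only 2.95% of genes passing the filter had a smaller range. Log2 differences from the high and low glucose control were -0.06 and -0.10 in the cholesterol array. In the fatty acid array they were 0.01 and -0.03.

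**Figure D1:**
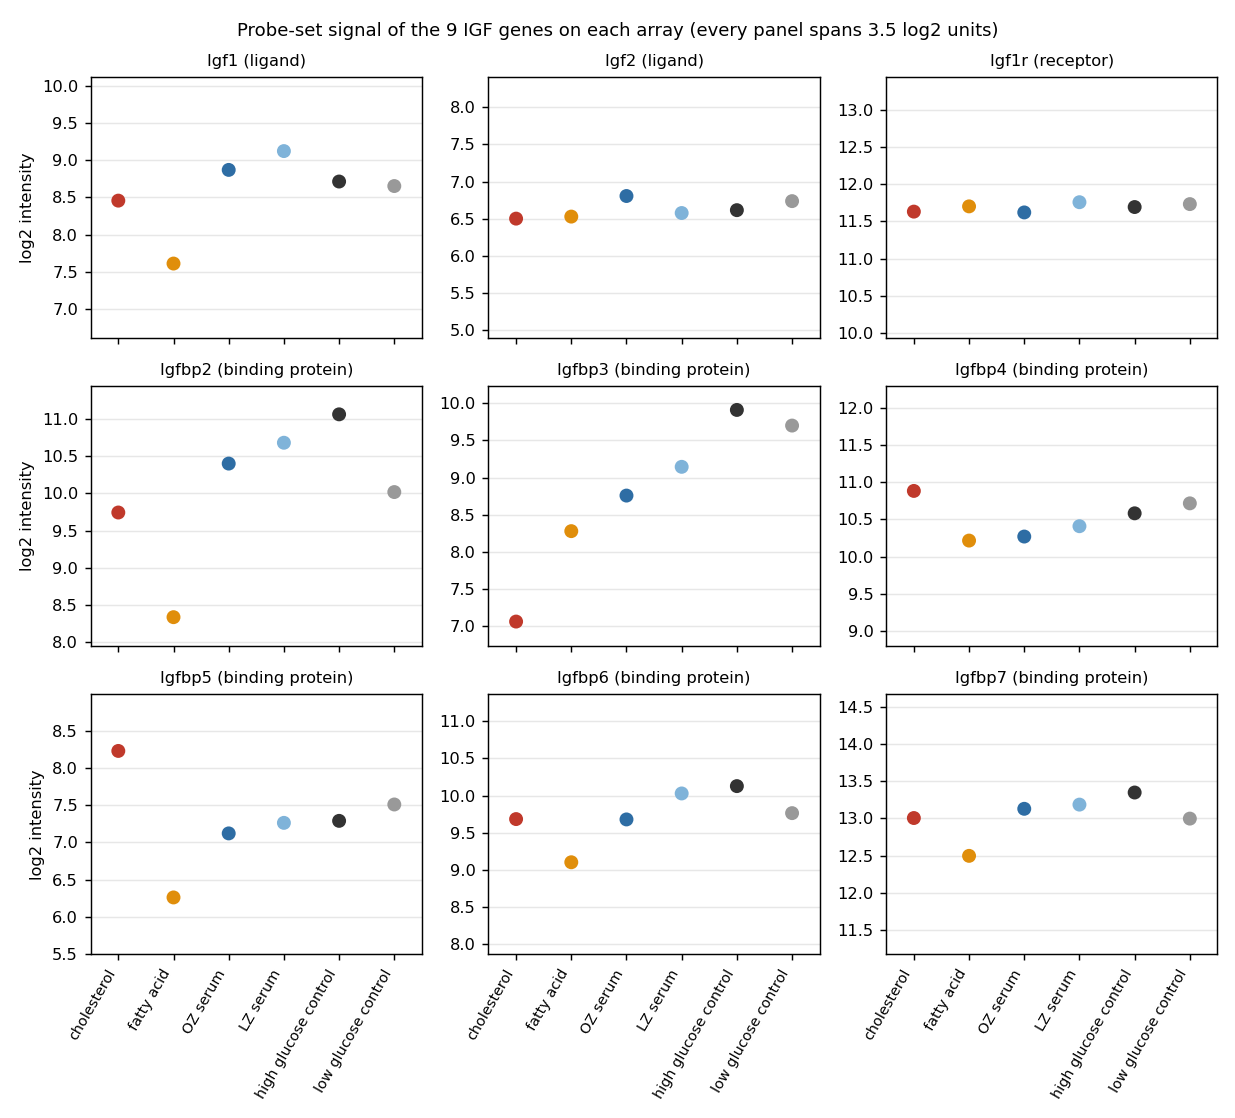
Log2 intensity (vertical axis) of the 9 IGF genes on each of the 6 arrays (horizontal axis), 1 point per array, with every panel spanning the same number of log2 units. Igf1r lies nearly flat with a range of 0.14, Igfbp3 is lowest with cholesterol at 7.06, and Igfbp2 is lowest with fatty acid at 8.34.

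Upstream sequence is shown for 4 binding protein genes to set side by side Igfbp4 and Igfbp5, whose signals followed the same order of arrays, and Igfbp3 and Igfbp2, which lay furthest below the controls with cholesterol and with fatty acid. Each is the 250 bases before the annotated start of the gene, from RefSeq on assembly GRCr8, 5′ to 3′ on the gene's strand. Capitals mark TATA-type letters (TATANA), the GC box (GGGCGG) and the E-box (CACGTG), searched on both strands.
Igfbp3, chr14:86277945-86278194, minus strand: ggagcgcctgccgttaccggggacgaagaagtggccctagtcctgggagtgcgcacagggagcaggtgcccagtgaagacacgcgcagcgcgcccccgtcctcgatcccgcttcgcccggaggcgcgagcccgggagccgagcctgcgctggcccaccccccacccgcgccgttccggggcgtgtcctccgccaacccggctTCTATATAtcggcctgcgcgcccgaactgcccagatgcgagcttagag
Igfbp2, chr9:81864561-81864810, plus strand: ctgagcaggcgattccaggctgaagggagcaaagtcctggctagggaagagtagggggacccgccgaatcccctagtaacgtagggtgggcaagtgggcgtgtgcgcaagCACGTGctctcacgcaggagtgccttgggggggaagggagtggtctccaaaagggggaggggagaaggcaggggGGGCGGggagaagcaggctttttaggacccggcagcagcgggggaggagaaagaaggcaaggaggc
Igfbp5, chr9:81914188-81914437, minus strand: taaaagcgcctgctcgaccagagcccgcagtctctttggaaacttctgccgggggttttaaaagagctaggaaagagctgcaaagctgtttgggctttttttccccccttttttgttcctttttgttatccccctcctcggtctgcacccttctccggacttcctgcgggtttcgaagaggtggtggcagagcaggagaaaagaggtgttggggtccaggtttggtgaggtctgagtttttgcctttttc
Igfbp4, chr10:84491221-84491470, plus strand: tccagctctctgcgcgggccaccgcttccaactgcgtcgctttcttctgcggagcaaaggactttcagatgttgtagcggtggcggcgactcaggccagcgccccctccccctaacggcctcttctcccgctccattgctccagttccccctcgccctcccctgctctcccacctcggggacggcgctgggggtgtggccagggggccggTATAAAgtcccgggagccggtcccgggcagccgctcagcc
The Igfbp3 window was 71.6% G and C with 31 CpG dinucleotides and held 2 overlapping TATA-type matches that begin 48 and 46 bases before the start. The Igfbp2 window was 64% G and C with 11 CpG dinucleotides, a GC box and an E-box but no TATA-type match. The Igfbp5 window was 51.6% G and C with 8 CpG dinucleotides and held none of these letters, while that of Igfbp4 was 68.8% G and C with 21 CpG dinucleotides and 1 TATA-type match that begins 40 bases before the start. Over all 33469 windows of this length, 24.2% held TATA-type letters, 30.5% the GC box and 5.59% the E-box, and the medians were 51.2% G and C and 5 CpG dinucleotides. Of 9 motifs searched, the other 6 were in none of these 4 windows. They were the sterol regulatory element TCACNCCAC (0.974% of all windows), CCAAT (34.0%), the FOXO site GTAAACA (3.21%), the cyclic AMP response element TGACGTCA (1.59%), the AP-1 site TGANTCA (6.34%) and the amino acid response element TGATGNAA (3.40%). A match is a description of letters and not a bound site.

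Igfbp3 encodes the main carrier of IGFs in serum. Its probe set, 17696211, had the widest range of the 9, 2.84 log2 units, which 99.7% of genes passing the filter did not reach. Its intensity was 134 with cholesterol, 311 with fatty acid, 433 with OZ serum, 566 with LZ serum, 962 in the high glucose control and 831 in the low glucose control. All 4 treated arrays were lower than both controls, in the order cholesterol, fatty acid, OZ serum and LZ serum from the lowest up. Cholesterol lay at log2 differences of -2.84 and -2.63 from the high and the low glucose control, and only 2 of the 11540 genes had a more negative smallest difference. Fatty acid lay at -1.63 and -1.42. The cholesterol value is under the olfactory receptor 95th percentile of its array, 214. When 32 was added to every intensity first, the differences were -2.58 and -2.38.

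Igfbp2 encodes a binding protein that also carries an integrin-binding motif. Its probe set, 17860300, was the one of the 9 that differed most between the controls. Its intensity was 856 with cholesterol, 323 with fatty acid, 1351 with OZ serum, 1641 with LZ serum, 2138 in the high glucose control and 1036 in the low glucose control. The fatty acid array was lowest by a wide margin, and the high glucose control was highest. Fatty acid lay at log2 differences of -2.73 and -1.68 from the high and low glucose control, ranks 16 and 61 from the bottom of all genes passing the filter. With cholesterol the differences were -1.32 and -0.27, so the array was more than 2-fold lower than the high glucose control and within 1.21-fold of the low glucose control. The high glucose control was itself 2.06-fold higher than the low glucose control in Igfbp2, where 29 genes, or 0.251% of those tested, reached 2-fold in that direction and 12 genes, or 0.104%, in the other. Of the 8 IGF genes that passed the filter, Igfbp2 was the one that did. At any size, 5 of the 8 were higher in the high glucose control (48.9% of all genes) and 3 were lower (51.1%).

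Igfbp5 encodes a binding protein that attaches to extracellular matrix and is known from differentiating muscle cells. Probe set 17865372 had an intensity of 300.0 with cholesterol, 76.6 with fatty acid, 139 with OZ serum, 153 with LZ serum, 156 in the high glucose control and 182 in the low glucose control. Cholesterol was the highest array and fatty acid the lowest, with the other 4 close together. Cholesterol lay at log2 differences of 0.94 and 0.72 from the high and low glucose control, and fatty acid at -1.03 and -1.25. Cholesterol was 3.92-fold higher than fatty acid, rank 18 among all genes in that direction. Only the cholesterol value exceeded the olfactory receptor 95th percentile of its array, and with the offset of 32 the fatty acid differences shrank to -0.79 and -0.98, under 2-fold.

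Igfbp4, whose protein restrains IGF action until the protease PAPP-A cleaves it, had the same order of arrays as Igfbp5 over a smaller range of 0.67. Probe set 17650986 had an intensity of 1889.7 with cholesterol, 1189.7 with fatty acid, 1235 with OZ serum, 1360.3 with LZ serum, 1534 in the high glucose control and 1683 in the low glucose control. Log2 differences from the high and low glucose control were 0.30 and 0.17 in the cholesterol array. In the fatty acid array they were -0.37 and -0.50. These sizes are within the 95th percentile of 0.64 and 0.63 for cholesterol and of 0.92 and 0.90 for fatty acid over all genes in the same array pairs.

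Igfbp6 encodes the binding protein that prefers IGF2, and Igfbp7 a related secreted protein with low affinity for IGFs. Igfbp6 had an intensity of 823 with cholesterol, 550.5 with fatty acid, 820.5 with OZ serum, 1045 with LZ serum, 1119 in the high glucose control and 870.1 in the low glucose control. Igfbp7 had an intensity of 8223 with cholesterol, 5779.8 with fatty acid, 8959.9 with OZ serum, 9318 with LZ serum, 10429 in the high glucose control and 8178 in the low glucose control. Fatty acid was the lowest array for both genes and the high glucose control the highest. The fatty acid log2 differences from the high and low glucose control were -1.02 and -0.66 for Igfbp6 and -0.85 and -0.50 for Igfbp7. With cholesterol they were -0.44 and -0.08 for Igfbp6 and -0.34 and 0.01 for Igfbp7.

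**Figure D2:**
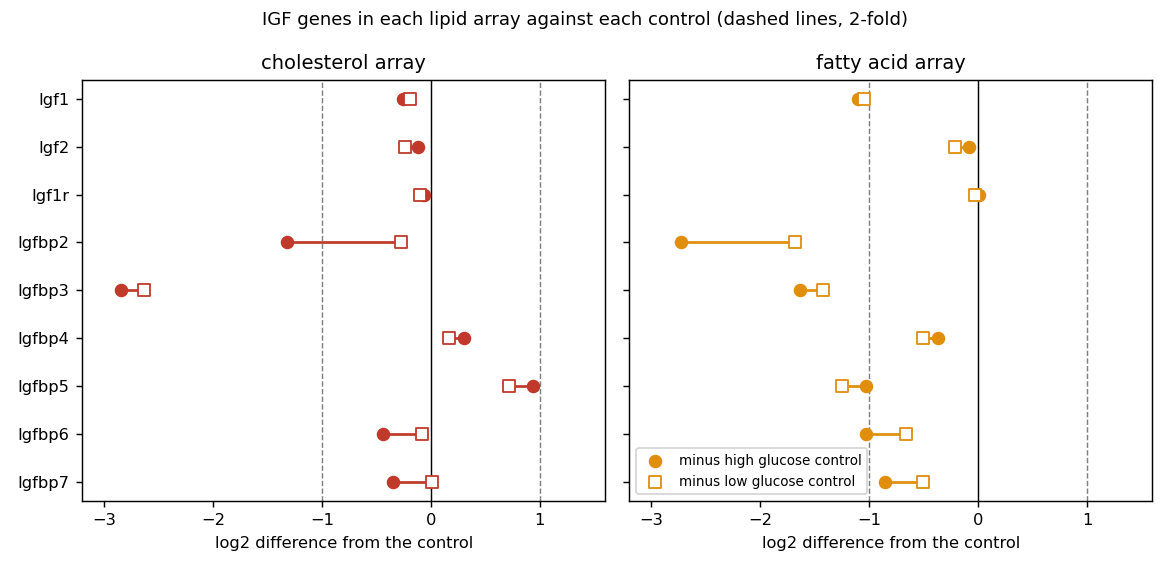
Log2 difference (horizontal axis) of each IGF gene (rows) in the cholesterol array on the left and the fatty acid array on the right, with filled circles against the high glucose and open squares against the low glucose control, 1 array each. Igfbp3 lies furthest left with cholesterol (-2.84 and -2.63) and Igfbp2 with fatty acid (-2.73 and -1.68), and Igfbp5 lies right of 0 with cholesterol and left of 0 with fatty acid.

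In the cholesterol array, 1 of the 8 IGF genes that passed the filter, Igfbp3, was at least 2-fold lower than both controls, and none was as much higher. Over all 11540 genes, 0.806% were lower by that much and 0.381% were higher. At 1.5-fold, Igfbp5 joined as a higher gene (1.36% of all genes) beside Igfbp3 as a lower one (2.04%). At any size, 5 of the 8 were lower than both controls (33.6% of all genes) and 2 were higher (36.3%), these being Igfbp4 and Igfbp5. Over the 8 genes the median log2 difference from the high and low glucose control was -0.30 and -0.09, beside 0.01 and 0.00 over all genes. The summed intensity of 10 annotated markers of macrophages and leukocytes was higher in this array, at 1925. It was 1317 and 1075 in the high and low glucose control. Cd14 and Cd68 made up most of the cholesterol sum. The leukocyte marker Ptprc was at 42.8 with cholesterol, under the olfactory receptor 95th percentile. Ptprc and Lyz2 were lower than both controls, and Aif1 and Cd3e lay between them. The other markers, Cd68, Cd14, Tyrobp, Adgre1, Csf1r and Itgam, were higher than both controls. Of the 10 markers 3 passed the filter, namely Cd68, Cd14 and Tyrobp. Cd68 was at least 2-fold higher, at 331 against 112 and 109 in the high and low glucose control. Tyrobp, Adgre1, Csf1r and Itgam lay under the olfactory receptor 95th percentile on every array. Mesenchymal markers were lower than both controls in 10 of 13 cases and summed to 62705 with cholesterol against 71938 and 72665. Endothelial markers, of which 1 of 7 passed, summed to 551 with cholesterol and 544 with fatty acid, against 970.0 and 693 in the high and low glucose control. That difference was in the gene Erg, at 172 and 172 against 612 and 296, while the other 6 were under the olfactory receptor 95th percentile and summed to 379 and 372 against 358 and 396. The part of these lists in the IGF gene values was not tested.

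In the fatty acid array, 4 of the 8 genes were at least 2-fold lower than both controls and none was as much higher. These were Igf1, Igfbp2, Igfbp3 and Igfbp5. Over all genes 2.01% were lower by that much and 0.641% were higher. At 1.5-fold 5 of the 8 were lower, with Igfbp6 added (6.13% of all genes), and none was higher (2.92%). At any size 7 of the 8 were lower than both controls, against 39.7% of all genes, and none was higher, against 40.4%, since Igf1r lay between the controls. The median log2 difference of the 8 from the high and low glucose control was -1.03 and -0.85, beside 0.01 and -0.00 over all genes. Igf1 and Igfbp5 passed the threshold narrowly, by 2.06-fold and 2.04-fold, and neither reached it with the offset of 32. Mesenchymal markers were also lower in this array, with a summed intensity of 54495 over 13 genes against 71938 and 72665 in the high and low glucose control. On that list 10 of 13 were lower than both controls, and Col3a1, a fibrillar collagen gene, was so by at least 2-fold. Myoblast and satellite cell markers, of which 8 of 14 passed the filter, summed to 4404 against 8240.3 and 8485. Ncam1 (2638 against 4918 and 5519) and Acta1 (344 against 1855 and 1446, a smallest log2 difference of -2.07) carried most of that sum's difference. Of the 8, 4 were lower than both controls and 3, Pax7, Myf6 and Des, were higher, and the median log2 difference was -0.27 from one control and -0.17 from the other. The part of these shifts in the IGF gene values was not tested.

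Set directly against fatty acid, cholesterol gave higher values for 6 of the 8 genes, against 51.9% of all genes, and lower values for Igfbp3 and Igf1r, against 48%. Of these, Igfbp5 (log2 difference 1.97) and Igfbp2 (1.41) were at least 2-fold higher, where 1.92% of all genes were, and Igfbp3 (-1.22) was at least 2-fold lower, where 0.901% were. Igf1 was at 0.85, Igfbp4 at 0.67, Igfbp6 at 0.58 and Igfbp7 at 0.51. At 1.5-fold, 4 were higher (7.43% of all genes) and 1 was lower (4.31%). Igfbp2 and Igfbp5 are neighbours in the RefSeq annotation of assembly GRCr8, with no other protein-coding gene between them. They were both lower with fatty acid, but with cholesterol Igfbp2 was below and Igfbp5 above both controls. Igfbp3 has Igfbp1, the binding protein gene of liver, as its neighbour, and the Igfbp1 signal stayed between 111 and 134 over all 6 arrays.

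**Figure D3:**
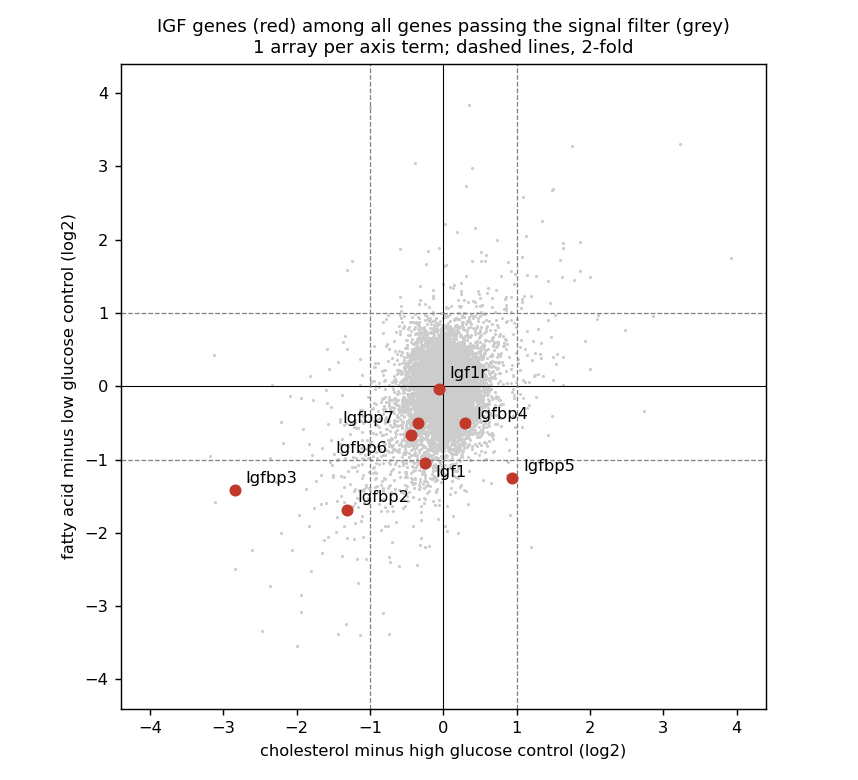
Log2 difference of the cholesterol array from the high glucose control (horizontal axis) and of the fatty acid array from the low glucose control (vertical axis), so that no control enters both axes, for 11540 genes in grey and the 8 IGF genes that passed the filter in red. Igfbp3 (-2.84 and -1.42) and Igfbp2 (-1.32 and -1.68) lie low on both axes, and Igfbp5 (0.94 and -1.25) lies in the lower right. The horizontal position of Igfbp2 depends on the control, since cholesterol was at -0.27 from the low glucose control.

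The serum arrays were close to each other. All 8 genes that passed the filter were lower with OZ serum than with LZ serum, where 58.1% of all genes were lower and 41.9% higher, and none of the 8 reached 2-fold. In that direction 0.026% of all genes reached 2-fold, and 0% did in the other. The log2 differences ran from -0.06 in Igfbp7 to -0.39 in Igfbp3, followed by -0.35 in Igfbp6, -0.28 in Igfbp2 and -0.25 in Igf1. Their median was -0.20, beside -0.03 over all genes. The 95th percentile of the size of this difference over all genes was 0.31, which Igfbp3 and Igfbp6 exceeded.

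Against both controls, Igfbp3 was lower in both serum arrays. The log2 differences were -1.15 and -0.94 for OZ serum and -0.76 and -0.55 for LZ serum, each pair against the high and then the low glucose control. The smallest of these differences, 1.47-fold, ranked 4 from the bottom of the 11540 genes, although 0 of all genes (0%) reached 2-fold against both controls in both serum arrays. At any size, Igf1 was the 1 gene of the 8 higher than both controls in both serum arrays (8.83% of all genes), and Igfbp3, Igfbp4 and Igfbp5 were the 3 lower ones (19.7%). Igf1 was at 0.16 and 0.22 with OZ serum and 0.41 and 0.47 with LZ serum, each pair in the same order, and its smallest difference ranked 61 from the top. Igfbp2 was between the controls in both serum arrays, with log2 differences of -0.66 and -0.38 from the high glucose control and 0.38 and 0.66 from the low glucose control.

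**Figure D4:**
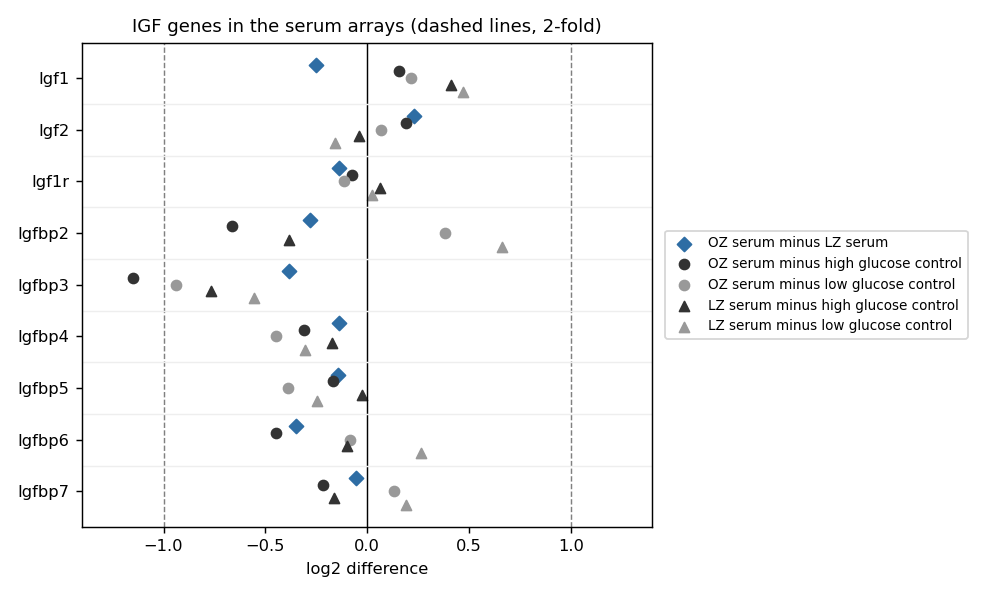
Log2 differences (horizontal axis) of the IGF genes (rows) between OZ and LZ serum (diamonds) and of OZ serum (circles) and LZ serum (triangles) from the high glucose control (dark) and the low glucose control (light), 1 array each. Igfbp3 is lower in all 5 comparisons, from -0.39 to -1.15, and Igf1 is higher than both controls in both serum arrays.

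The patterns of the genes over the 6 arrays can be described by correlations of log2 values, which rest on 6 single arrays and share them. Igfbp2, Igfbp6 and Igfbp7 followed one another most closely, with r from 0.96 to 0.99, and Igf1 followed these 3 at 0.87 to 0.91. All 4 were lowest with fatty acid, as were Igfbp4 and Igfbp5. Igfbp4 and Igfbp5 had r = 0.89. Igfbp3 had no value above 0.58 with any of the other 7.

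For the 5 genes with a range of at least 2-fold, the 3 most similar genes were found by the root mean square distance between mean-centred log2 values. Those nearest to Igfbp3 were Cyp51 (distance 0.22, r = 0.98), a sterol demethylase of cholesterol synthesis, Tnfsf18 (0.30, r = 0.99), a ligand of the tumour necrosis factor family, and Idi1 (0.34, r = 0.95), the isopentenyl diphosphate isomerase. Nearest to Igfbp2 were Pik3ip1 (0.20, r = 0.98), an inhibitor of PI3K, Mme (0.21, r = 0.98), the neutral endopeptidase, and Rarres1 (0.21, r = 0.97). Igfbp5 lay nearest to Chst12 (0.09, r = 0.99), a chondroitin sulfotransferase, Atoh8 (0.10, r = 0.99), a transcription factor, and Lrrc15 (0.16, r = 0.96). Igf1 lay nearest to Pgm5 (0.09, r = 0.99), Kcne4 (0.11, r = 0.98) and the integrin gene Itga1 (0.11, r = 0.98). Igfbp6 lay nearest to Tcf7l2 (0.05, r = 0.99), Sgcb (0.06, r = 0.99) and Rasa3 (0.06, r = 0.99).

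Other genes of the IGF axis were read through lists. Of the 9 further family genes, 4 passed the filter, and none was at least 2-fold different from both controls with either lipid. With cholesterol 0.381% of all genes were higher by that much and 0.806% lower, and with fatty acid 0.641% and 2.01%. Igf2r, the receptor that clears IGF2, had an intensity of 1785 with cholesterol and 1126 with fatty acid, against 1751 and 2370.3 in the high and low glucose control, so that fatty acid lay 0.64 below the nearer control. Insr, the insulin receptor gene, ranged from 482 to 587 over the arrays. Igfbp1 and the insulin gene Ins2 passed the filter but lay under the olfactory receptor 95th percentile on all 6 arrays. Igfals, which encodes the acid labile subunit, Insrr, Ins1, Igfbpl1 and Igsf10 did not pass the filter.

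Of 22 annotated proteases of IGF-binding proteins and their inhibitors 15 passed the filter, and 1 was higher and 1 lower than both controls by 2-fold or more with each lipid. Over all genes the shares were 0.381% higher and 0.806% lower with cholesterol, and 0.641% higher and 2.01% lower with fatty acid. Pappa, which encodes the protease that cleaves IGFBP4, had an intensity of 1009 with cholesterol and 423 with fatty acid, 363 with OZ serum and 541 with LZ serum, against 358 and 322 in the high and low glucose control. Cholesterol was the highest array, 2.82-fold above the nearer control, while fatty acid was 1.18-fold above it. Stc1, which encodes stanniocalcin 1, an inhibitor of PAPP-A, had an intensity of 700.3 with cholesterol and 1023 with fatty acid, against 4409 and 2486 in the high and low glucose control. Its smallest log2 differences were -1.83 and -1.28. The related inhibitor gene Stc2, named here after its value was seen, was at -0.98 with cholesterol, just under 2-fold, and at -0.13 with fatty acid. Mmp3, which encodes a matrix metalloproteinase able to degrade IGFBP3, had an intensity of 7141 with fatty acid against 2342 and 2278 in the high and low glucose control. Its smallest difference was 1.61 with fatty acid and 0.03 with cholesterol. Htra1 (1.07), whose serine protease cleaves IGFBP5, C1s (1.64) and Mmp9 (1.02) were at least 2-fold higher with cholesterol than with fatty acid, where 1.92% of all genes were. The fatty acid value of Mmp9, 155, was under the olfactory receptor 95th percentile, and C1s also differed by 1.20 between the high and the low glucose control.

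Downstream of the receptor, 32 of 33 annotated genes of adaptors and PI3K-AKT signalling passed the filter. With cholesterol none was 2-fold different from both controls, where 0.806% of all genes were lower and 0.381% higher. With fatty acid 4 were at least 2-fold lower (2.01% of all genes) and 0 higher (0.641%). The median log2 difference of the list with fatty acid was 0.00 from one control and 0.04 from the other, beside -0.00 and 0.01 over all genes. The 4 were Grb14 (-1.71), an adaptor that inhibits insulin receptor signalling, Irs1 (-1.71), the docking protein of the insulin and IGF1 receptors, Pik3ip1 (-1.44) and Pik3r3 (-1.23), a regulatory subunit of PI3K. Irs1 had an intensity of 342 with cholesterol and 149 with fatty acid, against 549 and 487 in the high and low glucose control, and its fatty acid value was under the olfactory receptor 95th percentile. The fatty acid values of Pik3ip1, 199, and Pik3r3, 170.3, were under it too, so that of the 4 only Grb14, at 408, was above it. The genes on this short list include both an activating docking protein and inhibitors. Grb14, Irs1 and Pik3ip1 were also at least 2-fold higher with cholesterol than with fatty acid, where 1.92% of all genes were.

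Of 12 FOXO factors and targets past the filter, 2 were at least 2-fold lower with fatty acid, Sesn3 (-1.20), a sestrin, and Ccng2 (-1.17), a cyclin G, and none was with cholesterol. Of 5 growth hormone axis genes past it, Ghr, the growth hormone receptor gene, was at -1.05 with fatty acid and -0.54 with cholesterol. Of 6 CCN genes, whose proteins hold a domain related to IGF-binding proteins, Ccn5 (-1.90) and Ccn3 (-1.59) were at least 2-fold lower with fatty acid, at -0.27 and -0.47 with cholesterol. None of the 6 cell-surface partners of the binding proteins past the filter and neither of the 2 IGF2 mRNA-binding protein genes reached 2-fold in either array, and Igf2bp2, named after its value was seen, was at 0.57 with cholesterol. These counts stand beside the shares of all genes given above for each lipid and direction.

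**Figure D5:**
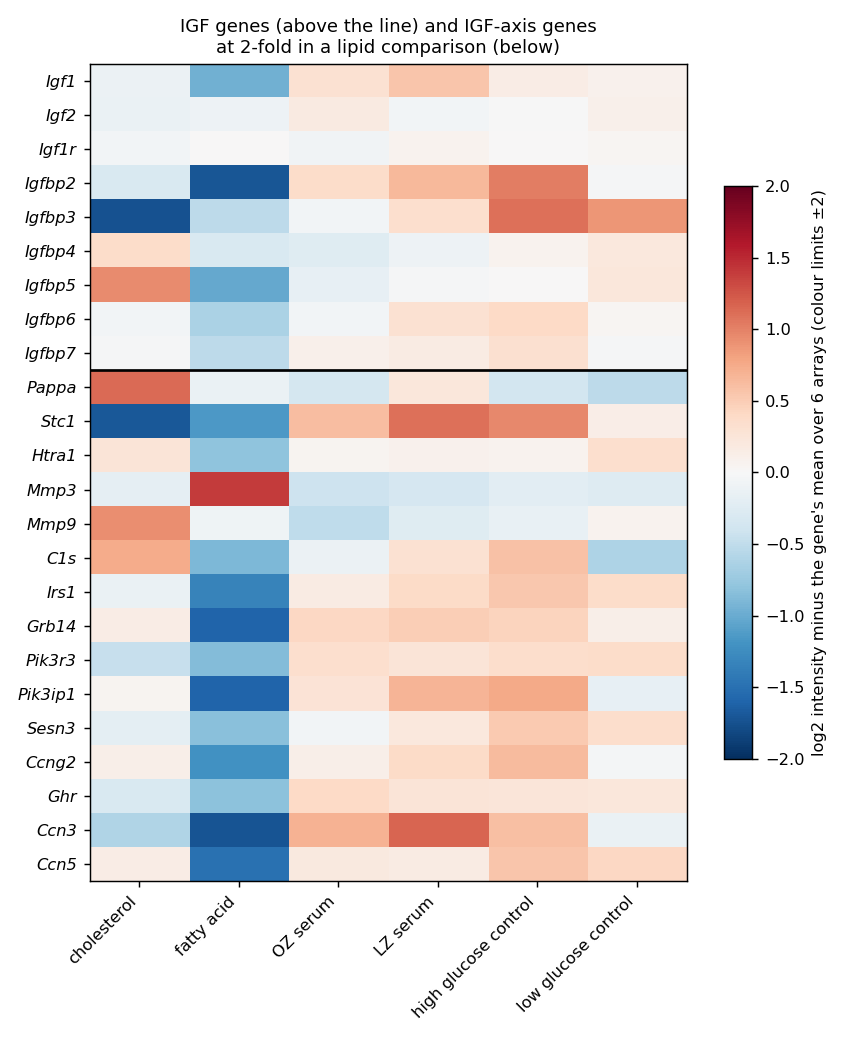
Log2 intensity minus each gene's own mean over the 6 arrays, in colour, for the 9 IGF genes above the line and the 15 list genes at least 2-fold different in a lipid comparison below it, with 1 column per array. The fatty acid column is low in most rows, while Mmp3 is high there, and Pappa and Igfbp5 are high and Igfbp3 and Stc1 low in the cholesterol column.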

How the data were processed

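Total RNA of 6 cultures was hybridised to 1 array each, and arrays were grouped by their titles. The authors deposited 1 linear intensity per array for each of 36685 probe sets. How they summarised, background-corrected and normalized it is not given in the sources used here. Values were positive and no 2 arrays shared more than 32 identical values. Log2 was taken without an offset. Platform annotation gave 1 gene to 18511 probe sets, several to 575 and none to 17599. A gene took its probe set with the highest mean. RefSeq (assembly GRCr8) held 18394 of the identifiers and changed 0 symbols.

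With 1 array per group no test was possible. Genes were counted if they lay 2-fold or more from every array they were compared with, and the smallest difference is given (0 if the signs differ). Ranks and percentages are over the 11540 genes that passed the signal filter. Named genes were all IGF genes, pathway list genes at least 2-fold different in a lipid comparison, all 9 further IGF family genes, and the 3 genes nearest to each wide-ranging IGF gene. For markers the plan was the one of highest mean and any at 2-fold, but not all of these are named and other markers are. Stc2 and Igf2bp2 also lie outside the rule. The genes and lists were chosen with earlier results of these data known, and the olfactory receptor yardstick was added after seeing the data. The counting rule was run on simulated data with equal noise at every intensity, and the likeness measure on planted near-copies of 1 profile. These runs checked the code and do not measure accuracy at low signal. Of the 16 lists, 8 hold pathway genes and 8 cell type markers. Markers of endothelium passed the filter in 1 of 7 cases, of epithelium in 2 of 7 and of smooth muscle in 5 of 6. Those of adipocytes did so in 5 of 8, of Schwann cells and glia in 5 of 5 and of myoblasts in 8 of 14. In the same order of lists, only 0, 0, 2, 1, 1 and 2 markers exceeded the olfactory receptor 95th percentile on every array. Alternatives were quantile normalization, median centring, cyclic loess, no or a stricter signal filter, an offset of 32, averaged probe sets, a 1.5-fold threshold and single or averaged controls. Software was Python 3.11.15, numpy 2.4.6, pandas 2.3.3, matplotlib 3.10.9, R 4.3.3 and limma 3.58.1.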

Additional observations from a re-analysis of the deposited data

Results flagged for a closer look

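Igfbp4 and Igfbp5 lay on opposite sides of both controls in the lipid arrays. For Igfbp5 the smallest log2 difference from both controls was 0.72 with cholesterol and -1.03 with fatty acid. For Igfbp4 it was 0.17 with cholesterol and -0.37 with fatty acid. Each lipid is a single array, so the difference was not tested, and both lipids were read against the same controls. Of the 11540 genes passing the filter, 2573 (22.3%) lay on opposite sides in this way at any size. Igfbp4 and Igfbp5 among the 8 IGF genes that passed it are close to that share. The Igfbp5 signal exceeded the olfactory receptor 95th percentile with cholesterol alone.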

How the results depend on the processing

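The counts of IGF genes at 2-fold stayed within 1.5 times of those reported under quantile normalization, median centring, cyclic loess, the stricter signal filter and the mean of the controls. Averaging probe sets could not change the counts, since each IGF gene has 1 probe set. Dropping the filter added only Igf2, whose range was 1.23-fold, so it could not change them either. For cholesterol against both controls, the count was 2 in place of 1 with a 1.5-fold threshold, which added Igfbp5, and 2 against the high glucose control alone, which added Igfbp2. For fatty acid it was 2 in place of 4 with an offset of 32, which left Igfbp2 and Igfbp3. Under the stricter filter the fatty acid count was 3, since Igfbp5 did not pass. That filter asked for a log2 signal of at least 8.68 on a gene's highest array, where the main filter used the mean. Igf1 had a mean of 8.57 and passed it only through its highest arrays. For cholesterol against fatty acid the count was 5 in place of 3 at 1.5-fold, which added Igf1 and Igfbp4. Under the stricter filter it was 2, again without Igfbp5. Over all genes, the cholesterol counts of 44 higher and 93 lower genes became 157 and 235 at 1.5-fold, 75 and 157 with the high glucose control alone, 91 and 125 with the low glucose control alone and 71 and 124 with their mean. The fatty acid counts of 74 and 232 became 337 and 707 at 1.5-fold and 118 and 354 with the high glucose control alone. Those of cholesterol against fatty acid, 221 and 104, became 857 and 497 at 1.5-fold. Of 99 differences of single genes, 3 changed sign under a scaling, each at most 0.03 in size. The 10 alternative values that moved by over 0.1 all came from the offset, while averaged probe sets could move none. Among the scalings, the median of all genes shifted most with centring, by -0.06 between cholesterol and the low glucose control. No paired analysis was possible because each group holds 1 array. Low signal limits the fold sizes of Igfbp5, of Igfbp3 with cholesterol and of Igf1 with fatty acid.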
